A study of Rattus norvegicus with 2 samples.

Results

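The E2F transcription factors and the pocket proteins that hold them in check were examined in C6, a glioma line from rat, of which 2 colonies were measured. The genes were taken by name: E2f1 to E2f8, Rb1 and Rbl1. A gene was measured where an array feature carried its symbol and no other, and the feature with the highest mean level stood for it. Of the 10 genes, 9 were measured, among 18166 genes measured in all; E2f2 is not analysed here. The colonies are called No.8 and No.4 after the numbers in the labels, which are all that separate the arrays. Both colonies are labelled undifferentiated glioma cells, grown in medium with 10% serum. The same text on treatment, with CHIR99021, an inhibitor of the kinase GSK3, at 20 µM and forskolin, which raises cyclic AMP, at 100 µM over 35 days, stands beside both. Whether the RNA was taken before or after that treatment is not stated, and neither colony is labelled as treated or untreated. Each colony is 1 clone measured on 1 array, so no test was possible, and a difference between clones cannot be told apart from one between cultures or hybridizations.

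E2F factors bind promoters of genes for DNA replication and cell division, most of them as dimers with a DP protein. In resting cells the pocket proteins, RB1 (encoded by Rb1), p107 (Rbl1) and p130 (Rbl2), bind E2F factors and keep these promoters silent; cyclin-dependent kinases phosphorylate the pocket proteins and release the factors as a cell enters S phase. E2F1, E2F2 and E2F3 are known mainly as activators, E2F4 and E2F5 mainly as repressors that work with p107 and p130, and E2F6 as a repressor that works with Polycomb proteins and without pocket proteins. E2F7 and E2F8, the atypical factors, bind DNA without a DP partner and repress. Several of these genes are themselves E2F targets, and loss of RB1 function is a frequent event in malignant glioma.

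Some of these genes are known E2F targets, so their promoters are shown with the E2F words they hold. RefSeq (build GRCr8) gave a promoter for 5 of the 10 genes: E2f3, E2f6, E2f7, Rb1 and Rbl1. The core of the E2F site was searched as the word TTNNCGC, in which each N had to be C or G, on both strands, in a window running 250 bases before to 50 after the gene start. Printed 5′ to 3′ on the strand of the gene, the 250 bases before the start are given for the 4 promoters with such a word, which is in capitals.
E2f3, chr17:34810166-34810415, plus strand: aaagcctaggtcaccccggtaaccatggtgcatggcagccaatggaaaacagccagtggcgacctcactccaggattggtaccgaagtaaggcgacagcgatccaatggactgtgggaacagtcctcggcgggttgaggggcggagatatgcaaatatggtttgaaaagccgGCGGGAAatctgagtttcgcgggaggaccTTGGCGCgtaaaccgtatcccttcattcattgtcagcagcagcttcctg
E2f7, chr7:48036653-48036902, plus strand: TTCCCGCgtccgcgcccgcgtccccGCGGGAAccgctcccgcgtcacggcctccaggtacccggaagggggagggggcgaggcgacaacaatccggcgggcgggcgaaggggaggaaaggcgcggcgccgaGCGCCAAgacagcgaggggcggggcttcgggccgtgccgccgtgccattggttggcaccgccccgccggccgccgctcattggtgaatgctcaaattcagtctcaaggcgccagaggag
Rbl1, chr3:166289377-166289626, minus strand: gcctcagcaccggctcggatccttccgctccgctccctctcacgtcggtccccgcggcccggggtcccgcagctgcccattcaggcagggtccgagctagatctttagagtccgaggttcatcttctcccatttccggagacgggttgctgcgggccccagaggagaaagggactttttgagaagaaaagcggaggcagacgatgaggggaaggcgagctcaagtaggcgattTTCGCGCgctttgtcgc
Rb1, chr15:54911858-54912107, minus strand: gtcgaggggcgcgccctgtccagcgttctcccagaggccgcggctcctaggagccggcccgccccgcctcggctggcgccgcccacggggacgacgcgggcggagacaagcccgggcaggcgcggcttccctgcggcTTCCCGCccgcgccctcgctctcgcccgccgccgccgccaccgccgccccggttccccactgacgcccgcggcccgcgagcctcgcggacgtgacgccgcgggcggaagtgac

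The word nearest the start in Rbl1 began 17 bases before it, and that in E2f3 49 bases before it. E2f3 held 2 words, E2f7 held 3, Rbl1 held 1, and Rb1 held 2, of which 1 lies after the start and is not printed. No word was found in the E2f6 window. The share of promoters with an E2F word was 9.52% of all 33469 promoters in the table and 16.9% of the 9937 promoters of genes past the floor described below. The GC box GGGCGG, searched on both strands, was present in 4 of the 5 windows and in 60.1% of the promoters of genes past the floor; in Rb1, 1 of its GC boxes overlaps an E2F word. Of the second element of cell cycle promoters, the CHR, the words TTTGAA and TTCGAA were searched on both strands. Only the E2f3 window of the 5 held 1, against 13.7% of the promoters of genes past the floor. These words are matches of letters, not measured binding sites. In the differences between the colonies given below, E2f7, with 3 E2F words, differed by 0.50. With 2 words each, E2f3 differed by 0.94 and Rb1 by -0.06. Rbl1, with 1 word, differed by 0.45 and E2f6, with none, by 0.58. A link between words and differences was not tested in these 5 genes. For E2f3, whose long and short forms start at different promoters, which form the window belongs to was not examined.

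Levels are given in log2 units as deposited, and a difference is the level in No.8 minus that in No.4, so that a difference of 1 is 2-fold. The floor was set at 4.33, the median of the deposited table, and 11069 genes reached it on 1 array or both; these are called past the floor. No detection calls were used, and among 1184 olfactory receptor genes, which few cells outside the nose use, the values had a 99th percentile of 5.67. Levels of members below 5.67 are named as such, since they overlap the upper end of that range. Of the olfactory receptor genes, 89 were past the floor. The 2 arrays had nearly the same median (4.31 in No.8 and 4.34 in No.4), and over the genes past the floor their levels correlated with Pearson's r = 0.946 (across genes, which are not independent replicates). Of the glial markers, 8 of 10 were past the floor; Fabp7 and Slc1a3 were below it in both colonies, Gfap in No.4 and Olig2 in No.8. The 7 microglial markers had 1 gene past the floor, Trem2, and the 3 endothelial markers none. In the fibroblast list 2 of 4 were past it, Col1a1 and Pdgfra, in the neuronal list 2 of 4, Map2 and Rbfox3, and in the smooth muscle list 2 of 2, Tagln and Myh11, both of which were below it in No.4. Single markers also differed between the colonies. Of the glial list, 3 markers were at least 2-fold lower in No.8 and 1 was at least 2-fold higher: Olig2 had levels of 4.22 in No.8 and 6.36 in No.4, Cspg4 of 4.62 in No.8 and 6.37 in No.4, Gja1 of 6.86 in No.8 and 7.99 in No.4, and Gfap of 5.17 in No.8 and 4.11 in No.4. Col1a1 was higher in No.8 (10.64, against 8.25 in No.4), as was Tagln (5.45, against 3.92 in No.4), and Pdgfra was lower (9.53 in No.8, against 10.24 in No.4). Gfap, Tagln, Rbfox3 and Myh11 were below 5.67 in both colonies, so counted from 5.67 they did not differ. Counted from the floor, Gfap was 1.79-fold apart. Counted from 5.67, Olig2 was 1.61-fold and Cspg4 1.62-fold apart. No microglial, endothelial or neuronal marker past the floor was 2-fold apart. Log2 levels of the glial list summed to 67.3 in No.8 and 71.0 in No.4, of the fibroblast list to 25.6 in No.8 and 23.5 in No.4, of the smooth muscle list to 9.79 in No.8 and 8.20 in No.4, and of the microglial list to 25.2 in both. These sums include levels below the floor and do not measure how many cells of a type were present. The part of the marker differences in those of the members was not tested. RNA came from whole cultures, so fewer cells in cycle and less of a transcript per cell cannot be told apart.

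Most of the members, 7 of 9, were higher in No.8, and E2f5 and Rb1 were lower. Among all genes past the floor, 53.2% were higher in No.8. The median difference of the members was 0.45 (1.37-fold), beside a median of 0.03 over all genes measured. All 9 members were past the floor, and in both colonies. One member, E2f8, was at least 2-fold higher in No.8, as were 2.91% of the genes past the floor, and 0 were at least 2-fold lower, as were 2.57% of these genes (5.47% in both directions together). At 1.5-fold, E2f3 and E2f8 were called higher, against 9.87% of the genes past the floor, and none was called lower, against 7.93%; E2f6 lay just short of that limit at 1.499-fold, and E2f7 lay at 1.41-fold. With 9 genes and 1 array per colony these counts are a description of the arrays.

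**Figure D1:**
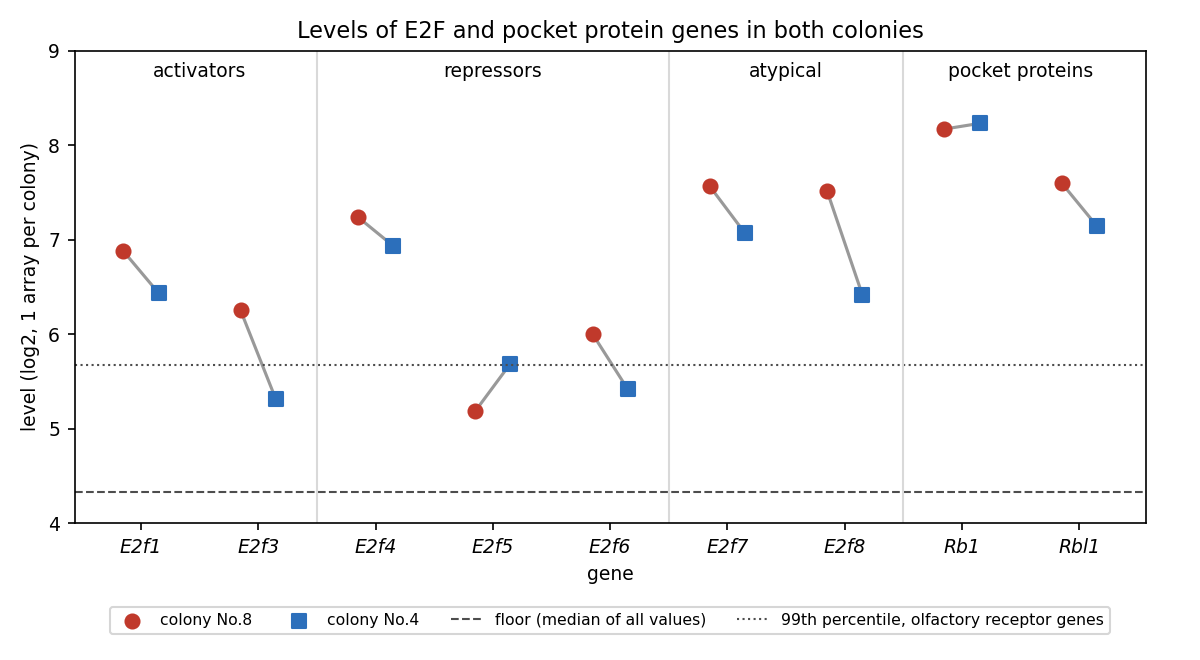
Level (log2) of each measured gene on the array of colony No.8 (red circles) and of colony No.4 (blue squares), ordered by role; the dashed line is the floor at 4.33 and the dotted line marks 5.67, the level that 99% of olfactory receptor values stay under. Each point is 1 array, and only E2f5 and Rb1 are lower in No.8.

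Both measured activators were higher in No.8. E2f1, the best known activator of S phase genes, which can also set off cell death, was at 6.88 in No.8 and 6.44 in No.4, a difference of 0.44 (1.36-fold). Of the genes past the floor, 15.7% were at least as far apart in the same direction, so a difference of this size was common on these arrays. E2f3, an activator that many cells need to re-enter the cycle, was at 6.25 in No.8 and 5.31 in No.4, a difference of 0.94 (1.92-fold). That size was reached by 3.40% of the genes past the floor and by 5.18% of the 2142 genes among them whose mean level lay within 0.5 of its own. The No.4 level of E2f3 was below 5.67, and counted from 5.67 the difference was 1.49-fold. A single feature stood for E2f3, whose long and short forms start at different promoters.

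The repressors did not go one way. E2f4, the most widely expressed repressor and the main E2F partner of p107 and p130, was at 7.24 in No.8 and 6.94 in No.4, a difference of 0.30 (1.23-fold) that 24.7% of the genes past the floor reached. E2f5, its close relative, was the member furthest in the other direction, at 5.18 in No.8 and 5.69 in No.4, a difference of -0.50 (1.42-fold lower in No.8). Its level in No.8 was below 5.67 and that in No.4 barely above it, so counted from 5.67 the difference was 1.01-fold. E2f5 was the only member with a second feature, which was at 3.63 in No.8 and 3.98 in No.4; both are below the floor, and the difference of -0.35 has the same sign. E2f6 was at 6.003 in No.8 and 5.42 in No.4, a difference of 0.58 (1.499-fold, and 1.26-fold counted from 5.67). Its direction was that of E2f4 and opposite to that of E2f5.

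The atypical factors were both higher in No.8, E2f8 more so than E2f7. E2f8, which represses E2F targets late in S phase and is needed for polyploid cell cycles in mouse liver, was at 7.52 in No.8 and 6.42 in No.4, a difference of 1.10 (2.14-fold). Of the genes past the floor, 2.34% were at least as far apart in this direction, and of the 2564 with a mean level within 0.5 of its own, 2.26%. E2f7, which acts with E2F8 in mouse development and represses E2f1, was at 7.57 in No.8 and 7.07 in No.4, a difference of 0.50 (1.41-fold), reached by 13.0% of the genes past the floor. Both levels of both genes were above 5.67.

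Of the pocket protein genes, Rbl1 was higher in No.8 and Rb1 was nearly level. The difference of Rbl1 is the middle one of the 9 members, and so is itself their median. Rb1 was at 8.17 in No.8 and 8.23 in No.4, a difference of -0.06 (1.04-fold) that 39.97% of the genes past the floor reached in that direction. Both levels lay well above the floor; the array does not report on the protein, its phosphorylation or small mutations. Rbl1, which encodes p107 and is a classic E2F target, had a level of 7.60 in No.8 and 7.15 in No.4, which differ by 0.45 (1.37-fold), a size reached by 15.1% of the genes past the floor. Rbl2, which encodes p130, the pocket protein of resting cells, was at 6.42 in No.8 and 6.23 in No.4, a difference of 0.20 (1.15-fold). All 3 pocket protein genes were within 1.5-fold, and without replicates their differences cannot be ranked.

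**Figure D2:**
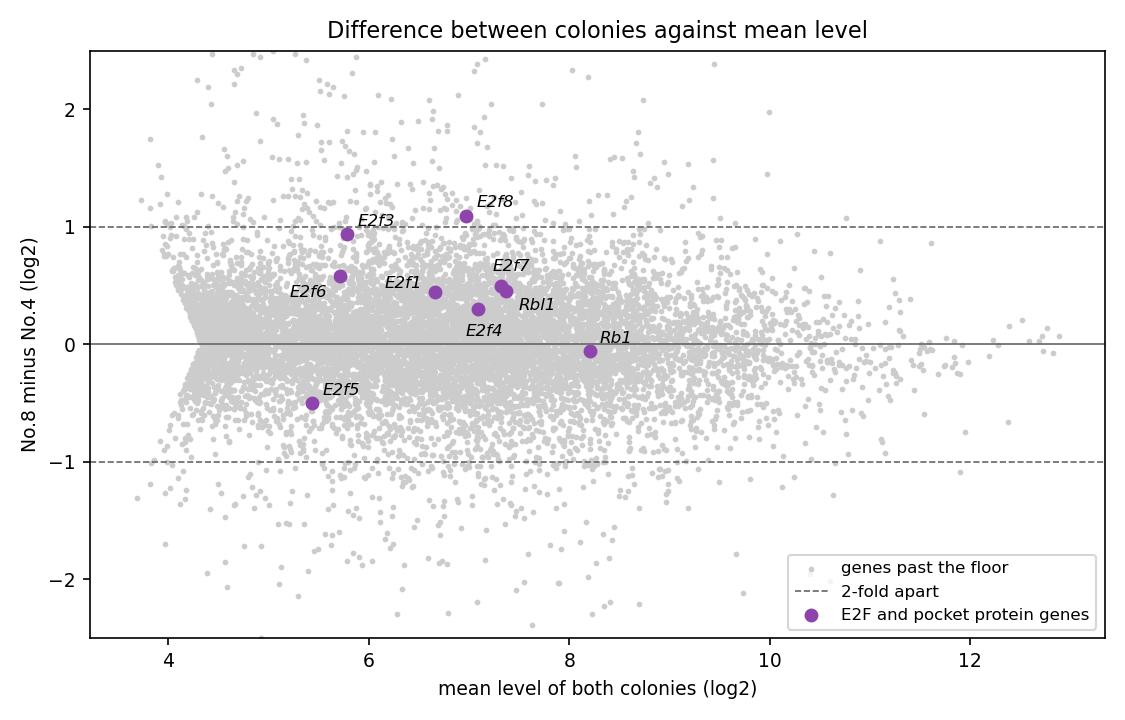
Difference between the colonies (No.8 minus No.4, log2) against the mean level of both colonies (log2) for the 11069 genes past the floor (grey), with the 9 members in purple; dashed lines mark 2-fold, and 44 genes lie outside the plotted range. Among the members only E2f8 is past the upper line, at 1.10, and none is past the lower line.

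The genes that act with E2F factors and pocket proteins were described from 11 lists. Beside the counts of each list stand the shares over all genes past the floor. Of these, 53.2% were higher in No.8 (5034 of the 11069 were lower), 2.91% at least 2-fold higher and 2.57% at least 2-fold lower. The DP proteins are the dimer partners of E2F1 to E2F6. Tfdp1, which encodes DP1, was at 8.74 in No.8 and 7.76 in No.4, a difference of 0.98 (1.98-fold). Tfdp2 was at 5.49 in No.8 and 5.10 in No.4, both below 5.67. The direction of both was that of the activators.

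MuvB is the core that joins E2F4 and p130 or p107 in the DREAM complex of resting cells, and B-MYB and FOXM1 in dividing cells. Its list had 7 of 8 genes measured, 4 higher and 3 lower in No.8, and 0 at 2-fold. The core genes Lin52 and Lin37 were lower in No.8, with levels of 6.61 in No.8 and 7.27 in No.4 for Lin52 and 6.84 in No.8 and 7.45 in No.4 for Lin37 (1.58-fold and 1.53-fold). The core genes Lin54 and Rbbp4 differed by 0.13 and 0.12, and Dyrk1a, the kinase that starts DREAM assembly by phosphorylating LIN52, by -0.18. The partners of dividing cells were higher in No.8: Foxm1 had levels of 7.94 in No.8 and 6.95 in No.4 (1.99-fold), and Mybl2, which encodes B-MYB, levels of 7.46 in No.8 and 7.01 in No.4 (1.37-fold). The list median was 0.12 as reported, but -0.03 with all features of a gene averaged, so its direction was not settled.

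Among the cyclins and kinases, the genes of the D and E cyclins were furthest apart between the colonies. Of the 8 measured cyclins and kinases that phosphorylate pocket proteins, 7 were higher in No.8, with a median of 0.24, and 1 was at least 2-fold higher. This was Ccnd2, the gene of cyclin D2, with levels of 6.84 in No.8 and 5.04 in No.4, which are 3.50-fold apart (2.25-fold counted from 5.67). Ccnd1, the gene of cyclin D1, went the other way, at 10.16 in No.8 and 10.91 in No.4 (1.68-fold lower in No.8). The cyclin E genes, known E2F targets, were both higher in No.8. Ccne1 had levels of 6.68 in No.8 and 5.70 in No.4 (1.98-fold), and Ccne2 levels of 6.49 in No.8 and 5.76 in No.4 (1.66-fold). The kinase genes Cdk4, Cdk6 and Cdk2, chosen once their values were known, differed by 0.12, 0.09 and 0.22.

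The inhibitors of these kinases differed less, with 2 of 6 measured genes higher and 4 lower in No.8, 0 at 2-fold, and a median of -0.09. Cdkn1a, the gene of the p53-induced inhibitor p21, differed by -0.61 and Cdkn1b, the gene of p27, by 0.52. Cdkn2c, which encodes an inhibitor of CDK4 and CDK6, differed by -0.18. Cdkn2a, the gene of the CDK4 inhibitor p16 and of ARF, was at 3.68 in No.8 and 3.85 in No.4, below the floor in both colonies. Cdkn2b, at 4.82 in No.8 and 4.84 in No.4, and Cdkn1c, at 4.79 in No.8 and 4.59 in No.4, were past the floor but below 5.67.

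Genes whose products act beside the members went in both directions, each by less than 2-fold. Of 9 measured pocket protein corepressors, 7 were higher in No.8 (median 0.24, 0 at 2-fold), with Hdac1, a histone deacetylase gene, at 0.48, Arid4a, whose product binds RB1, at 0.38, the histone methyltransferase gene Suv39h1 at 0.26 and the remodeller gene Smarca4 at 0.25. Of 8 measured genes of the E2F6 complex, 6 were lower in No.8 (median -0.17, 0 at 2-fold). E2f6 itself was higher in No.8, by 1.26-fold counted from 5.67. Yaf2 and Rybp, related Polycomb adaptors, differed by -0.53 and -0.46, while L3mbtl2 differed by 0.27. The Polycomb gene Pcgf6 differed by -0.26, but its levels, 5.37 in No.8 and 5.62 in No.4, were both below 5.67. Rnf2, Wdr5 and Ring1, chosen once their values were known, differed by only -0.10, -0.17 and -0.18. In the list on turnover, Fzr1, an activator of the APC/C ubiquitin ligase, differed by 0.74 (1.67-fold), as far as 5.98% of the genes past the floor, and Ccnf, the gene of cyclin F, by -0.49. Skp2, Fbxo5 and Mdm2 differed by 0.10, 0.12 and -0.32, and the median of the 5 was 0.10, with 0 at 2-fold.

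**Figure D3:**
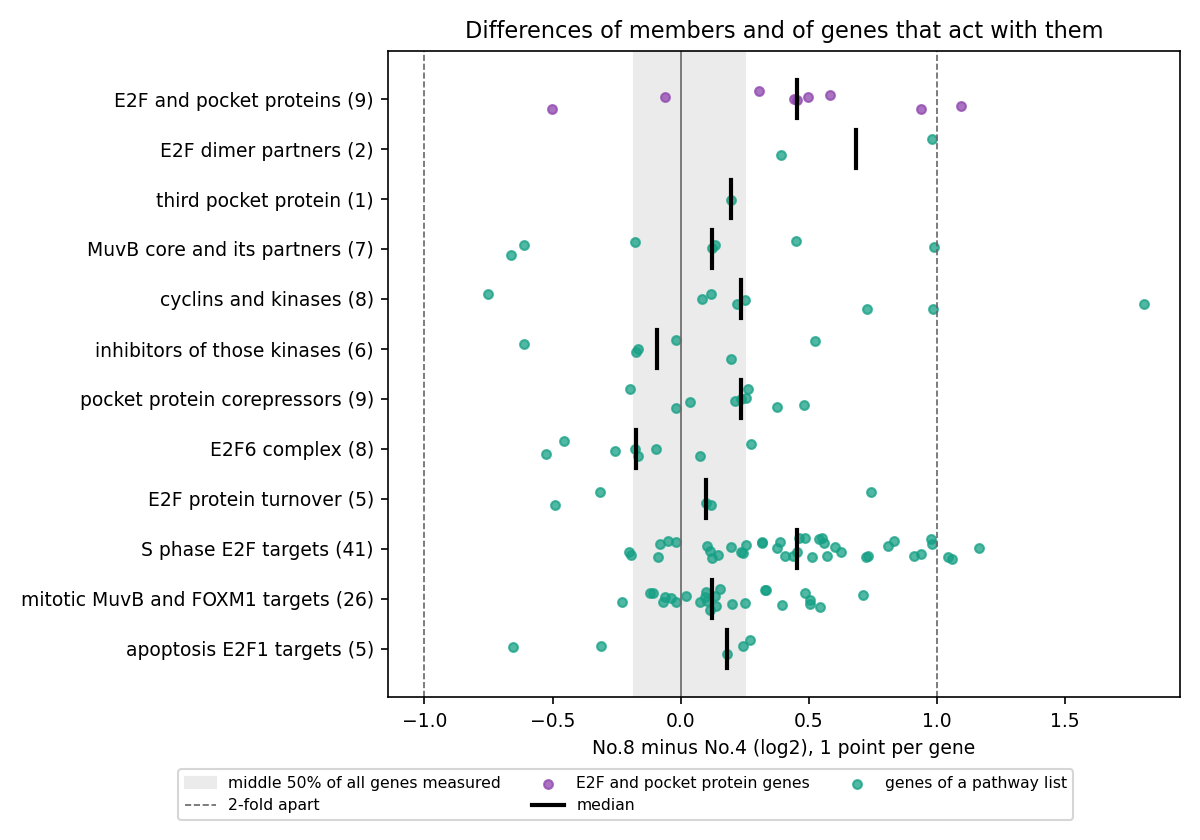
Difference between the colonies (No.8 minus No.4, log2) for each measured gene of the members (purple) and of 11 pathway lists (green), with the number of genes in brackets, list medians as black bars and the middle 50% of all genes measured in grey. The members and the S phase targets have medians of 0.45, and the mitotic targets 0.12.

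The S phase targets of E2F had the same median as the members, and the mitotic targets a smaller one. Of 41 measured S phase targets, all past the floor, 35 (85.4%) were higher in No.8, against 53.2% of all genes past the floor. Their median was 0.45 (1.37-fold). At 2-fold, 3 were higher, against 2.91% of the genes past the floor, and 0 were lower, against 2.57%. At 1.5-fold these counts were 13, against 9.87%, and 0, against 7.93%. This list, like the others, was chosen with earlier results of these data known, and its genes are not independent replicates. The helicase gene Mcm6 had levels of 9.13 in No.8 and 7.97 in No.4 (2.24-fold). Pola2, a subunit of DNA polymerase alpha, had 7.41 in No.8 and 6.35 in No.4 (2.08-fold), and the fork protection gene Timeless 7.39 in No.8 and 6.35 in No.4 (2.06-fold). Mcm7, a subunit of the same helicase as Mcm6, was 1.97-fold higher in No.8. Cdc25a (-0.20), Lig1 (-0.09) and Cdt1 (-0.08), chosen once their values were known, were among the 6 that were lower in No.8. An E2F word was present in 30 of the 38 promoters given for this list.

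Of 26 measured mitotic targets of MuvB and FOXM1, 19 (73.1%) were higher in No.8, against 53.2% of the genes past the floor. Their median was 0.12 (1.09-fold), and 0 were 2-fold apart, against 5.47% of the genes past the floor. The largest differences were those of the centromere histone gene Cenpa (0.71), the checkpoint kinase gene Bub1 (0.54), the mitotic kinase gene Plk1 (0.51) and the kinetochore gene Cenpf (0.50). The general markers of dividing cells differed less: Mki67 by 0.25 and Top2a by 0.16, both chosen once their values were known. A CHR word was present in 16 of the 22 promoters given for the mitotic list, and an E2F word in 5. For the S phase list the CHR word was present in 9 of 38. The difference between the medians of these lists was not tested.

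The apoptosis targets of E2F1 had 5 of 8 genes measured, with 3 higher and 2 lower in No.8 and 0 at 2-fold. Apaf1, the caspase activator, differed by -0.31 and Bcl2l11, the gene of the death protein BIM, by -0.65, at 6.26 in No.8 and 6.91 in No.4. Tp53bp2 was higher in No.8 by 0.27, Tp73 was below 5.67 in both colonies (4.99 in No.8 and 4.81 in No.4) and Ppp1r13b was below the floor. The median was 0.18 over the 5 and -0.06 over the 4 past the floor, so its direction was not settled.

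**Figure D4:**
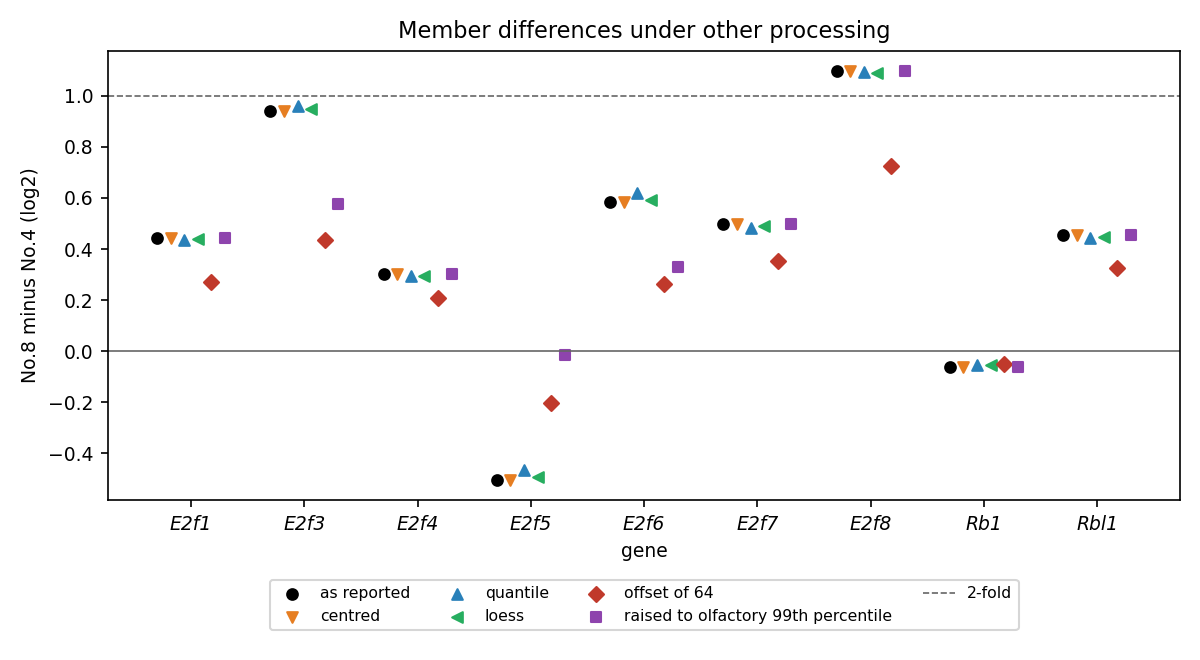
Difference between the colonies (No.8 minus No.4, log2) of each member as reported and after centring, quantile normalization, loess, an offset of 64 on the linear scale, and with lower levels set to 5.67; the dashed line is 2-fold. No member changes sign, but the offset and the raised levels cannot reverse one, and centring left the values as they were. With the offset E2f8 is at 0.72, below the line.

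No member changed direction under any of the alternatives tried, but most of these could not have reversed one. The offset and raised levels keep the order of the 2 colonies, and centring left every member's difference as it was. The choice of feature could change only E2f5, and the floor, fold size and list summary do not enter a member's difference. For the other members only quantile normalization and loess could have reversed a direction. The difference of E2f8 lay between 0.72 and 1.10, that of E2f3 between 0.43 and 0.96, and that of Rb1 between -0.06 and -0.05. The 2-fold call of E2f8 was lost with an offset of 64 added on the linear scale, which draws all differences towards 0. E2f5 lay between -0.50 and -0.02, and the value of -0.02 was that with its levels raised to 5.67.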

How the data were processed

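Total RNA of each colony was measured on 1 whole-transcript array, labelled with biotin per the labels' protocols. The authors deposited 1 value per feature and colony for 36685 features; no header or label names the scale, and it was inferred from a maximum of 13.3, above what a natural or base-10 log of a 16-bit signal can reach. How the authors made these log2 values before they were deposited (background correction, normalization and summarization) is, in the sources used here, not given, and they were not scaled further. In the platform annotation 18511 features had 1 gene symbol, 575 several and 17599 none; only the first kind was used. With 1 array per colony no test, p-value or error was computed, and the number of arrays limits the precision.

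The members and lists were chosen with earlier results of these data known. Named were all members, every gene of lists of 8 or fewer, and up to 4 genes past the floor with the largest differences of the longer lists. Promoters came from RefSeq (GRCr8); no comparison of proteins was made. Alternatives changed the scaling, floor, offset, feature per gene, fold size and list summary; raising levels to the olfactory receptor percentile was chosen after seeing the data. Steps were tested on simulated data. Python 3.11.15, pandas 2.3.3 and statsmodels 0.14.6 were used.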

Additional observations from a re-analysis of the deposited data

How the results depend on the processing

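No paired analysis was possible because each colony has 1 array. For the same reason no replicate could be left out. A difference was taken to have moved when it changed by more than 0.1, and a count or share when it changed by more than 1.5 times. Centring, quantile normalization and loess moved none of the members' differences, list medians or counts by that much, and shifted the median of all genes by at most 0.0147 (quantile normalization). With an offset of 64 the members' median was 0.27, the dimer partners' 0.48, the S phase targets' 0.32 and the apoptosis targets' 0.0398, and no member, cyclin or S phase target (0 each) was 2-fold higher in No.8. At 1.5-fold, the genes higher in No.8 were 2 members, 1 dimer partner, 1 MuvB gene, 3 cyclins, 1 turnover gene, 13 S phase targets and 1 mitotic target, and those lower were 2 MuvB genes, 1 cyclin, 1 inhibitor and 1 apoptosis target. At 4-fold, 0 members, 0 cyclins and 0 S phase targets were called. The share of all genes past the floor at 2-fold, 5.47%, was 3.43% with no floor, 3.06% with levels raised to the floor, 2.09% raised to 5.67, 1.51% with the offset, 17.8% at 1.5-fold and 0.867% at 4-fold. The MuvB median was -0.0333 with features averaged and -0.18 with the dimmest feature, where Lin54 is read from a feature below the floor. The apoptosis median was 0.00 with levels raised to the floor or to 5.67, -0.0649 over genes past the floor and -0.0541 as a mean. The cyclin list had a mean of 0.43, and the dimer partners a median of 0.49 with levels raised to 5.67. Signal over background is unknown, which limits E2f3, E2f5 and E2f6 most.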

Other observations

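Over all genes past the floor with a single promoter in the RefSeq table, the difference between the colonies was described by the number of E2F core words in the promoter. The 175 genes with 2 or more words had a median difference of 0.12, and 65.1% of them were higher in No.8. The 1335 genes with 1 word had a median of 0.06, with 54.8% higher in No.8, and the 7097 genes with none had a median of 0.03, with 52.4% higher. Without the members and the pathway lists the medians were 0.11, 0.05 and 0.03, over 153, 1312 and 7042 genes. For the GC box the medians were 0.03 with 2 or more, 0.05 with 1 (54.2% higher in No.8) and 0.03 with none. For CHR words they were 0.05 with 2 or more (104 genes, 55.8% higher in No.8), 0.02 with 1 and 0.04 with none (53.2% higher). The value for 1 E2F word was thus close to that for 1 GC box. With 2 or more they were further apart, at 0.12 for E2F words (65.1% higher in No.8) and 0.03 for the GC box (52.7% higher). At 2-fold, 3.43% of the genes with 2 or more E2F words were higher in No.8 and 2.86% lower. Of the genes with none, 2.72% were higher and 2.71% lower. Without the members and the pathway lists, 3.27% of the genes with 2 or more E2F words were called in each direction. These sets were formed after the members had been described, genes are not replicates, and no test was made. The middle 50% of the genes with 2 or more E2F words ran from -0.08 to 0.38, so most of their spread was shared with the genes that have none.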
